A study of Mus musculus with 8 samples.

Results

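The insulin-like growth factor (IGF) system was described here through 10 genes, which are all rows of the deposited count table named Igf1, Igf2, Igf1r, Igf2r, Igfbp2, Igfbp3, Igfbp4, Igfbp5, Igfbp6 or Igfbp7, out of 35896 genes in the table. The rule itself uses gene names only, but the genes were proposed with earlier results of these data known. All 10 passed the filter on low counts, Igfbp6 only through its counts outside the SIS3 libraries.

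The RNA came from molar tooth germs, the buds from which the molars form, taken from BRE-GFP mouse embryos and kept in culture. BRE-GFP reports BMP-Smad signalling by green fluorescence, and every group carried it. All germs grew in DMEM with 10% FBS and GlutaMAX, and were treated for 1 day. Germs of E12.5 were given the solvent DMSO, the compound SB431542, which blocks the type I receptors for TGF-beta, activin and nodal, or SIS3, which blocks Smad3. Germs of E13.5 had DMSO alone and served as the stage control. The labels used here state no dose, no strain and no number of germs pooled per sample. The germs are mixed tissue, with the serum in the medium as an outside source of growth factors in all 4 groups.

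Each of the 4 groups has 2 columns of estimated counts, 8 in all. Column totals differed by 0.00168% to 0.00749% within the 3 groups other than SIS3, against 44.5% for SIS3. For genes with 1 annotated transcript, the median squared difference was 0.555 to 0.591 times the sampling variance in these 3 groups and 3.66 times in SIS3, where sampling alone gives 0.455. It was 0.674 to 0.853 for genes with 2 to 6 transcripts and 1.07 to 1.42 with 7 or more, against 4.55 and 7.30 in SIS3. The means were higher, at 1.59 to 2.81 with 1 transcript and 3.80 to 4.52 with 7 or more, against 24.4 and 30.6 in SIS3. Sampling alone gives a mean of about 1, so some genes in these 3 groups differed beyond sampling noise. Of the members only Igfbp6 has 1 annotated transcript. Each of these 3 pairs was summed and counted as 1 library, since its columns stood far closer to sampling noise than those of SIS3. The SIS3 columns stayed as 2 libraries. Among the members, 26 of 30 pairs in these groups lay within the 95% sampling limit, and 1 of 10 in SIS3 did. Igf2r had the widest gap of the 4 exceptions, with 8486 and 9567 counts in the E12.5 DMSO columns.

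The 5 libraries held 30975010 counts (E12.5 DMSO), 28161788 (SB431542), 5995709 and 9427262 (SIS3 libraries 1 and 2) and 17519118 (E13.5 DMSO). Per the labels SIS3 RNA went through the TruSeq kit and all other RNA through the SMARTer kit, so kit and SIS3 cannot be told apart in any value below. The labelled tissue was present: Prrx1, Pdgfra and Msx1 led the 10 markers of dental mesenchyme, none of which was at 0 in any library, and their summed level was 3104 to 4191 CPM (counts per 1000000 counts of the library). With 1 library in 3 of the groups, the spread in every test came from the 2 SIS3 libraries and from the trend over all genes. The sources do not say that these came from separate cultures or litters, so the p-values measure a spread that may be technical.

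IGF1 and IGF2 are secreted growth factors that drive growth and survival of embryonic tissues through IGF1R, a receptor tyrosine kinase that signals by way of insulin receptor substrates to PI3K and AKT. IGF2R, the cation-independent mannose 6-phosphate receptor, takes up IGF2 and delivers it to lysosomes. The IGF binding proteins hold the ligands outside the cell, lengthen their life and limit or localise their access to the receptor, and proteases release the ligands from them. In the mouse embryo Igf2 is expressed from the paternal allele and Igf2r from the maternal allele in most tissues. In developing teeth the IGF system is known for its effects on growth and on the differentiation of the cells that make dentin and enamel.

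The ligand Igf2 was the most abundant member, and Igfbp4 the second in the libraries other than SIS3. Levels were compared between genes only after dividing counts by the length of the longest annotated transcript and scaling each library to the same total as CPM, a unit called the length-scaled level here. In E12.5 DMSO, Igf2 had a length-scaled level of 1506 and ranked 71 of 35437 genes. Igfbp4 followed at 684. Igfbp2 at 279, Igfbp5 at 278 and Igfbp3 at 265 lay so close that their order has no error estimate and changed when the union of all exons was used as length, where they stood at 254, 357 and 264. Igf2r at 191, Igf1 at 137 and Igf1r at 110 came next, then Igfbp7 at 28.4 and Igfbp6 at 6.34. With 1 library in this group, none of these neighbours could be tested against each other. With SIS3 the second member was Igf2r in library 1, at 247 against 176 for Igfbp4. In SIS3 library 2 it was Igfbp5, at 400 against 256 for Igfbp4.

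The plot of levels by library gives each member in CPM, a scale that compares libraries and not genes.

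**Figure D1:**
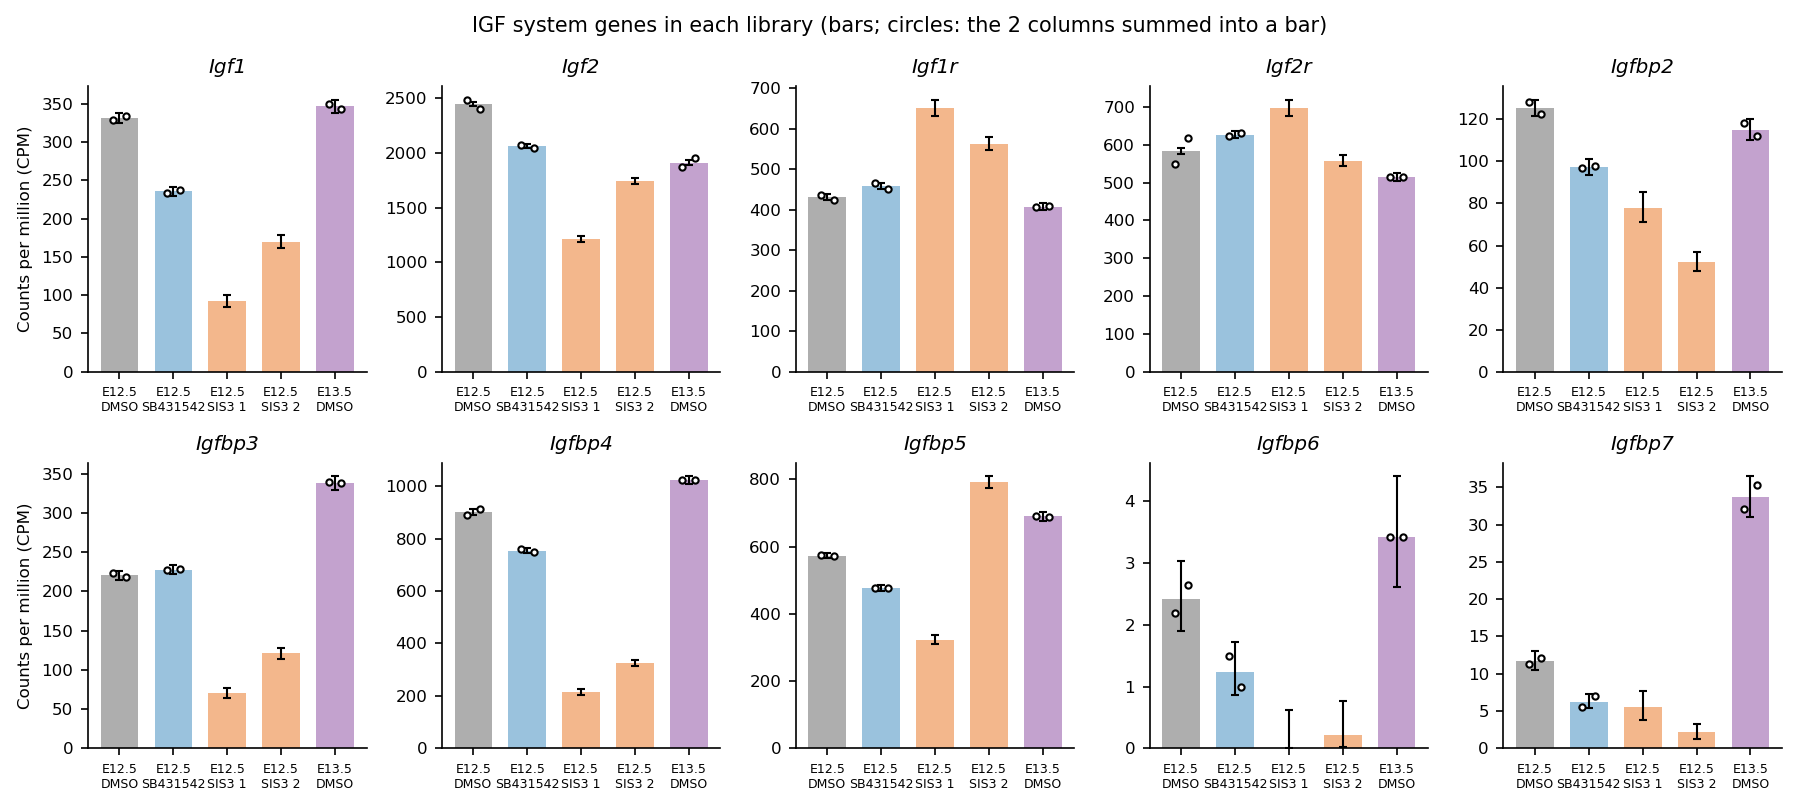
Level of each of the 10 members in the 5 libraries, in CPM on linear axes from 0 that differ between panels; bars are libraries, error bars exact 95% Poisson intervals that cover counting error only, and circles the 2 columns summed into a bar. The Igfbp4 bars of the SIS3 libraries, at 215 and 324, are lower than its 3 other bars, and Igf1r is above E12.5 DMSO in both SIS3 libraries.

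Igf2, the main fetal IGF ligand, lies on chromosome 7 from 142650766 to 142666816 on the minus strand (GRCm38, the assembly of mm10). Its level was 2445 CPM in E12.5 DMSO, 2062 in SB431542, 1215 and 1747 in the SIS3 libraries and 1913 in E13.5 DMSO. E12.5 DMSO was the highest library and both SIS3 libraries were the lowest. The log2 difference was −0.30 for SB431542 (95% interval −1.0 to 0.41), −0.80 for SIS3 (−1.39 to −0.20) and −0.32 for E13.5 (−1.03 to 0.38). The SIS3 difference had an unadjusted p of 0.0124 and an adjusted p of 0.146 (edgeR quasi-likelihood test, Benjamini-Hochberg over 19022 genes), so it did not pass 0.05. The gene shares 63.1% of its 31-base words with other models, among them the overlapping Gm49394, which held 0 to 37 counts in any library, and Igf2os, which was not analysed here. Its counts are uncertain to that extent.

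Igf1, the ligand that also mediates growth hormone action after birth, lies on chromosome 10 from 87858265 to 87937042 on the plus strand. It stood at 331 CPM in E12.5 DMSO, 235 in SB431542, 92.7 and 169.8 in the SIS3 libraries and 346 in E13.5 DMSO. The SIS3 libraries did not overlap the others, and the DMSO libraries of both stages were close. Relative to E12.5 DMSO the log2 difference was −1.41 for SIS3 (SE 0.34, 95% interval −2.17 to −0.65), with an adjusted p of 0.0518 in edgeR's quasi-likelihood test, just outside the threshold. Over all alternatives with a test the adjusted p ran from 0.000118 to 0.182: it was 0.0471 with DESeq2 size factors and 0.0208 in DESeq2, but 0.124 with the 2 groups fitted alone, 0.142 at a mean of at least 5 CPM and 0.182 with GC and length trends removed. For SB431542 the difference was −0.54 (−1.46 to 0.37, adjusted p 1), and for E13.5 it was 0.10 (−0.81 to 1.01, adjusted p 0.915). The antisense gene Igf1os overlaps Igf1 and was not analysed here.

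Igf2 exceeded Igf1 in all 5 libraries. The ratio of their length-scaled levels was 11.0 in E12.5 DMSO, 13.1 in SB431542, 19.6 and 15.4 in the SIS3 libraries and 8.25 in E13.5 DMSO. Both SIS3 libraries had a higher ratio than the 3 others, and no test was made of it. Igf2 made up 43.2% of the summed length-scaled level of the 10 members in E12.5 DMSO, 42.3% in SB431542, 42.2% and 45.4% in SIS3 and 34.1% in E13.5 DMSO.

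Neither receptor was called in any comparison. Igf1r, the signalling receptor, lies on chromosome 7 from 67952827 to 68233668 on the plus strand. Its level was 431 CPM in E12.5 DMSO, 458 in SB431542, 651 and 563 in the SIS3 libraries and 408 in E13.5 DMSO. It was the only member whose level was above E12.5 DMSO in both SIS3 libraries, by a fitted log2 difference of 0.42 (95% interval −0.19 to 1.04, adjusted p 0.506 in edgeR), which did not pass the test. SB431542 gave 0.04 (−0.66 to 0.73) and E13.5 gave −0.05 (−0.75 to 0.65).

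Igf2r, the clearance receptor for IGF2, lies on chromosome 17 from 12682406 to 12769664 on the minus strand. It stood at 583 CPM in E12.5 DMSO, 627 in SB431542, 697 and 558 in the SIS3 libraries and 514 in E13.5 DMSO. Its SIS3 libraries lay on either side of E12.5 DMSO, and the fitted log2 difference was 0.04 (−0.58 to 0.65). In SB431542 it was 0.05 (−0.66 to 0.76), and at E13.5 it was −0.15 (−0.86 to 0.56), so a change within these bounds was not detectable. The antisense gene Airn overlaps Igf2r and was not analysed here. The strand setting of the counting was not found in the labels, so reads of the pair cannot be told apart.

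Igfbp4 was the member that passed the test in the SIS3 comparison, where it fell. It codes for a small binding protein that mostly restrains IGF action until pregnancy-associated plasma protein A (PAPP-A) cleaves it, and lies on chromosome 11 from 99041244 to 99054392 on the plus strand. Igfbp3, the main carrier of IGFs in adult serum, is on the same chromosome from 7206086 to 7213923 on the minus strand. The 250 bases before the RefSeq start of each are given because these are the called member and the other of the 10 members on its chromosome. The windows lie at chr11:99040994-99041243 (plus strand) and chr11:7213924-7214173 (minus strand) of GRCm38.p6. Capitals mark matches, on either strand, to the Smad box CAGAC, the GC-rich Smad motif GGCGCC, the Sp1 box GGGCGG or the TATA box TATAAA.
Igfbp4: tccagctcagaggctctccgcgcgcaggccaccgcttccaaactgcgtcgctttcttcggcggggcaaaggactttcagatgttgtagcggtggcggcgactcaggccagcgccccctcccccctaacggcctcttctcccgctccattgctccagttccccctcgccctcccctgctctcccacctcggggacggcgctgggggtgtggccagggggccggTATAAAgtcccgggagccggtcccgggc
Igfbp3: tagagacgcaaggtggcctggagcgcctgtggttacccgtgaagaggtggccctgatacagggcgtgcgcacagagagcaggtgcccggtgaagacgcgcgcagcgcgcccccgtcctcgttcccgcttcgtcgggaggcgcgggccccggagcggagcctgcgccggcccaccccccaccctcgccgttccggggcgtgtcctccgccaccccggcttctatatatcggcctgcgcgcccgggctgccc

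The Igfbp4 window held 1 TATAAA and none of the 3 other motifs, and the Igfbp3 window held none of the 4. Among 32851 RefSeq windows of this length, CAGAC was in 42.2%, GGCGCC in 9.59%, GGGCGG in 32.7% and TATAAA in 12.4%. All 10 members matched a RefSeq promoter, with 14 windows because Igf2 has 4 start sites and Igfbp2 has 2. The GC content was 69.2% for Igfbp4 and 73.2% for Igfbp3, above the median of 52.4% over all windows. CAGAC occurred in 3 of the 4 Igf2 windows, in 1 of the 2 Igfbp2 windows and in those of Igf1r, Igf2r and Igfbp6. GGCGCC occurred only in the Igf1 window among these 14.

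Igfbp4 had a level of 901 CPM in E12.5 DMSO, 753 in SB431542, 215 and 324 in the SIS3 libraries and 1024 in E13.5 DMSO. Both SIS3 libraries were far below every other library. The log2 difference from E12.5 DMSO was −1.82 (SE 0.29, 95% interval −2.44 to −1.19), which is 3.53-fold lower, with an adjusted p of 0.00381 in edgeR's quasi-likelihood test. It was −2.12 in SIS3 library 1 and −1.57 in library 2. This call ended when genes under a mean of 5 CPM were left out, where the adjusted p was 0.0547. Over all alternatives with a test it ran from 3.54e-08 to 0.0547. SB431542 gave −0.31 (−1.06 to 0.44) and E13.5 gave 0.21 (−0.54 to 0.96), with adjusted p values of 1 and 0.756. The gene shares 6.18% of its 31-base words with other genes.

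Igfbp3 stood at 220.4 CPM in E12.5 DMSO, 228 in SB431542, 70.4 and 121 in the SIS3 libraries and 338 in E13.5 DMSO. SIS3 was lowest and E13.5 highest. The log2 difference was −1.28 for SIS3 (SE 0.33, 95% interval −2.0 to −0.56), with an adjusted p of 0.0544 in edgeR that missed the threshold. Over all alternatives with a test it ran from 0.000854 to 0.151, with 0.0413 in DESeq2. For E13.5 it was 0.65 (−0.21 to 1.5, adjusted p 0.341), and for SB431542 it was −0.0047 (−0.86 to 0.85).

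Igfbp2 and Igfbp5 lie tail to tail on chromosome 1, at 72824503 to 72852474 on the plus strand and 72857932 to 72874884 on the minus strand, with 5457 bases between them. Igfbp2, a binding protein abundant in fetal serum, stood at 125 CPM in E12.5 DMSO, 97.3 in SB431542, 78.1 and 52.3 in the SIS3 libraries and 115 in E13.5 DMSO. Its SIS3 libraries were the 2 lowest, at a log2 difference of −1.01 (95% interval −1.71 to −0.31, adjusted p 0.115 in edgeR), which did not pass the test. SB431542 gave −0.42 (−1.25 to 0.41) and E13.5 gave −0.09 (−0.92 to 0.73). Igfbp5, which binds to extracellular matrix and bone mineral, had 573 CPM in E12.5 DMSO, 477 in SB431542, 323 and 792 in the SIS3 libraries and 689.9 in E13.5 DMSO. The SIS3 libraries were the lowest and the highest of all 5.

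For Igfbp5 the 2 SIS3 libraries differed by 1.25 on the log2 scale, where the median absolute gap over all genes was 0.348. The fitted SIS3 difference of −0.12 (−1.67 to 1.43) is therefore decided by single libraries. It was 0.37 without library 1 and −0.87 without library 2. For SB431542 the Igfbp5 difference was −0.32 (−2.12 to 1.48) and for E13.5 it was 0.30 (−1.5 to 2.1), the widest intervals after those of Igfbp6. The summed level of the chondrocyte markers differed between the same libraries, at 167 and 799.8 CPM, as did that of the dental epithelial markers, at 317 and 457 CPM. Most of the dental epithelial sum in library 1 was Lef1, at 256 CPM against 216 in library 2. The median log2 difference of the dental epithelial markers from E12.5 DMSO was −0.93 in library 1 and 0.68 in library 2. The part of these cells in the Igfbp5 gap was not tested.

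The plot of the 2 SIS3 libraries sets the members against all genes.

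**Figure D2:**
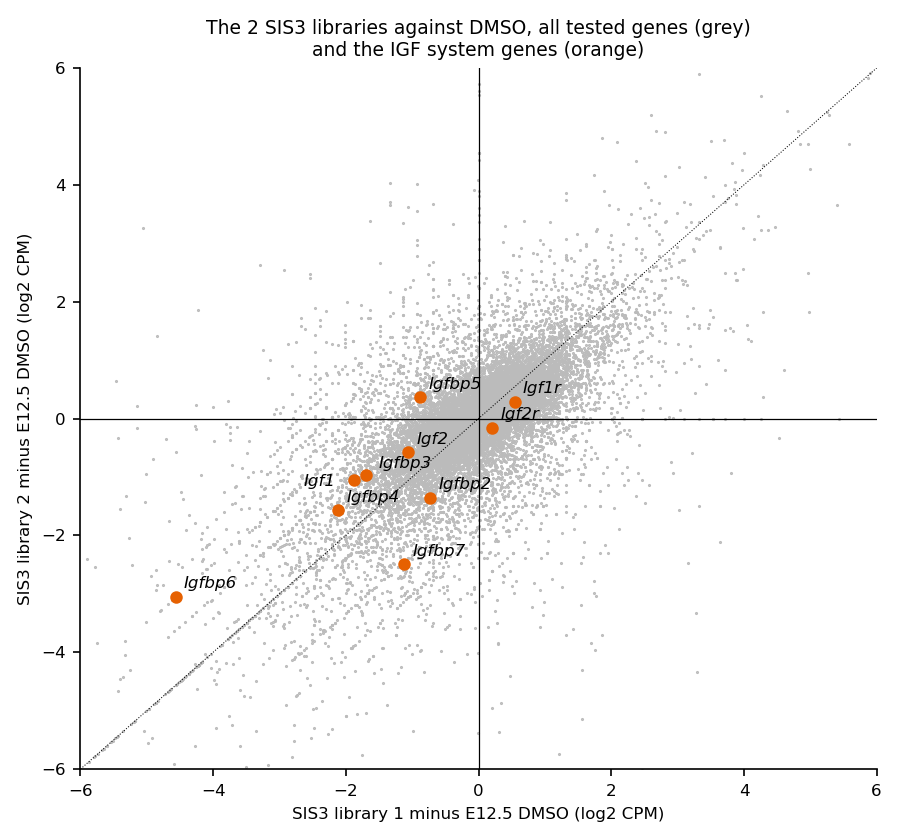
Log2 difference from E12.5 DMSO in SIS3 library 1 (horizontal) and library 2 (vertical), for all tested genes in grey and the 10 members named, with the dotted line at equal values and a prior count of 2, on which the place of Igfbp6 depends. Of 19022 genes 69 lie outside the axes, and 7 members lie below 0 on both axes while Igfbp5 and Igf2r have opposite signs in the 2 libraries.

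Igfbp7 and Igfbp6 were the members with few counts. Igfbp7, a secreted matrix protein that binds IGFs weakly and is known from vessel walls, lies on chromosome 5 from 77349240 to 77408041 on the minus strand. It stood at 11.7 CPM in E12.5 DMSO, 6.25 in SB431542, 5.50 and 2.12 in the SIS3 libraries and 33.7 in E13.5 DMSO. E13.5 was the highest library, with 590 counts against 363 in E12.5 DMSO. The log2 difference was 1.55 for E13.5 (SE 0.68, 95% interval 0.06 to 3.04), with an unadjusted p of 0.0422 and an adjusted p of 0.188 in edgeR. For SIS3 it was −1.72 (−3.0 to −0.43, adjusted p 0.149), with −2.55 without library 1 and −1.14 without library 2. For SB431542 it was −0.96 (−2.44 to 0.52). Polr2b overlaps Igfbp7 on the opposite strand and shares 4.57% of the 31-base words, so its counts carry that uncertainty.

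Igfbp6, a binding protein with a preference for IGF2, lies on chromosome 15 from 102144362 to 102149511 on the plus strand. It had 75 counts in E12.5 DMSO (2.42 CPM), 35 in SB431542 (1.24 CPM), 0 and 2 in the SIS3 libraries and 60 in E13.5 DMSO (3.42 CPM). The zero in SIS3 library 1 allows up to 0.500 CPM, taking 3 counts as the limit. The ratio of E12.5 DMSO to SIS3 was 18.7, with a 95% counting interval of 4.99 to 157 that covers counting error only. The adjusted p was 0.0800 in edgeR, so the difference did not pass the test. SB431542 gave −1.01 (−3.45 to 1.42) and E13.5 gave 0.53 (−1.86 to 2.92) on the log2 scale.

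SB431542 gave no member call. In it 0 of 10 members passed an adjusted p of 0.05 in edgeR, against 0% of all 19022 genes. At an unadjusted p under 0.05 it was again 0 of 10, against 1.24% of all genes (0.568% higher and 0.668% lower), and DESeq2 called 0 members there too. The median log2 difference of the members was −0.32, beside 0.00 over all genes, with 8 of 10 below 0. The median width of a 95% interval on either side was 1.22 over all genes, so in many genes smaller changes would not reach even an unadjusted p of 0.05. The smallest adjusted p over all genes was 0.272 in edgeR, so larger changes were not called either.

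In the SIS3 comparison 1 of 10 members was called, Igfbp4, against 3.82% of all genes (3.03% lower and 0.794% higher). At an unadjusted p under 0.05, 7 of 10 members were lower and 0 higher, against 11.0% and 5.82% of all genes (16.8% in either direction). Without Igfbp6, which passed the filter through the other libraries, it was 6 of 9. The median log2 difference was −1.15 (−1.01 without Igfbp6), beside 0.00 over all genes. In both SIS3 libraries 7 of 10 members were below E12.5 DMSO (6 of 9 without Igfbp6), against 40.5% of all genes.

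The stage comparison called 0 of 10 members, against 5.23% of all genes (4.06% higher and 1.17% lower). At an unadjusted p under 0.05, 1 member was higher, Igfbp7, against 15.4% of all genes higher, 8.88% lower and 24.3% in either direction, and DESeq2 called 0 members. The median log2 difference of the members was 0.16, with 4 of 10 below 0. All 3 comparisons share the E12.5 DMSO library, so their values are set side by side and not correlated. The plot of log2 differences gives them with their intervals.

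**Figure D3:**
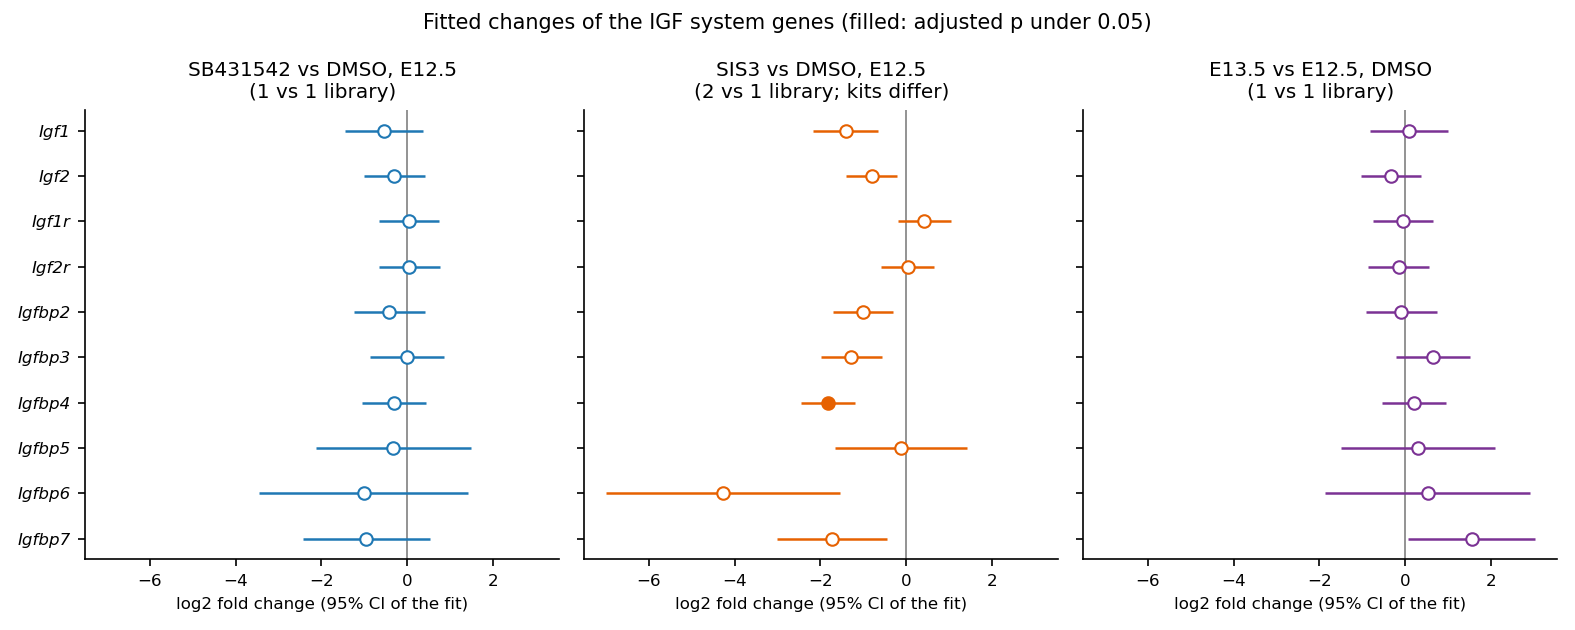
Log2 difference from E12.5 DMSO for the 10 members in SB431542, SIS3 and E13.5 DMSO, with 95% intervals from edgeR as bars, 0 marked and filled points for an adjusted p under 0.05. The SIS3 interval of Igfbp4, −2.44 to −1.19, lies farthest from 0 relative to its width, and no other member was called.

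Markers of other cell types moved with SIS3 as well. The 15 endothelial markers summed to 489 CPM in E12.5 DMSO against 61.4 and 63.3 with SIS3, with 13 of 15 called lower and none at 0. The 12 macrophage markers went from 81.2 to 16.2 and 13.4 CPM, with 6 of 12 called lower, C1qa at 0 in SIS3 library 1, and Adgre1, C1qb, C1qc and Cx3cr1 at 0 in library 2. Osteoblast markers went from 3999 to 892 and 863 CPM (4 of 9 called lower) and skeletal muscle markers from 796 to 284 and 233 (4 of 10). Over all genes 3.03% were called lower in SIS3. Col1a1 led the osteoblast list, whose median was −2.90 on the log2 scale. Ibsp and Bglap were at 0 in SIS3 library 1 and Bglap in library 2. Dental mesenchyme markers stood at 4191, 3746 and 3185 CPM, with 1 of 10 called lower, Dlx2. Their part in the lower Igfbp4, Igf1 and Igfbp3 levels was not tested. In bulk tissue, fewer cells of a type and less RNA per cell cannot be told apart.

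At E13.5, where Igfbp7 was at its highest, the endothelial markers summed to 529 CPM against 489 at E12.5, macrophage markers to 148 against 81.2, and osteoblast markers to 7104 against 3999. Surface epithelial markers summed to 212 against 57.4 and chondrocyte markers to 745 against 348, while pericyte markers stood at 643 against 675 and erythroid markers at 146 against 563. Within the chondrocyte list Col11a2 stood at 451 against 35.1 CPM, while the median of the tested markers was −1.43 on the log2 scale. For the surface epithelial list the median was 0.14, with 2 markers called higher and 1 lower. For the osteoblast list, led by Col1a1, the median was 0.87 and the values ran from −7.28 to 2.93. There 2 markers were called higher and 0 lower, and Bglap was at 0 at E13.5. Over all genes 4.06% were called higher and 1.17% lower at E13.5. The part of these cells in the Igfbp7 level was not tested. In SB431542 the surface epithelial markers summed to 12.3 CPM against 57.4, dental epithelial markers to 241 against 323, osteoblast markers to 2386 against 3999, and chondrocyte markers to 281 against 348. Of these lists 0 markers were called, with medians of −1.71, −1.34, −0.87 and −0.94 on the log2 scale. Their part in the SB431542 values of the members was not tested.

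The makeup of the binding proteins is given for each library as a description, with no test. Igfbp4 made up 44.4% of the summed length-scaled level of the 6 Igfbp genes in E12.5 DMSO, 43.6% in SB431542, 27.6% and 27.4% in SIS3 and 41.7% in E13.5 DMSO. Both SIS3 libraries had nearly the same share, well below the other 3. Igfbp5 made up 18.0%, 17.6%, 26.5%, 42.8% and 17.9% in the same order, so SIS3 library 2 held the largest share. Igfbp2 took 29.4% in SIS3 library 1 against 13% to 18.1% elsewhere, and Igfbp3 took 14.3% to 21.8% in all 5 libraries. The summed length-scaled level of the 6 genes was 1541, 1332, 639, 935 and 1814 in that order, lowest in SIS3 and highest at E13.5.

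**Figure D4:**
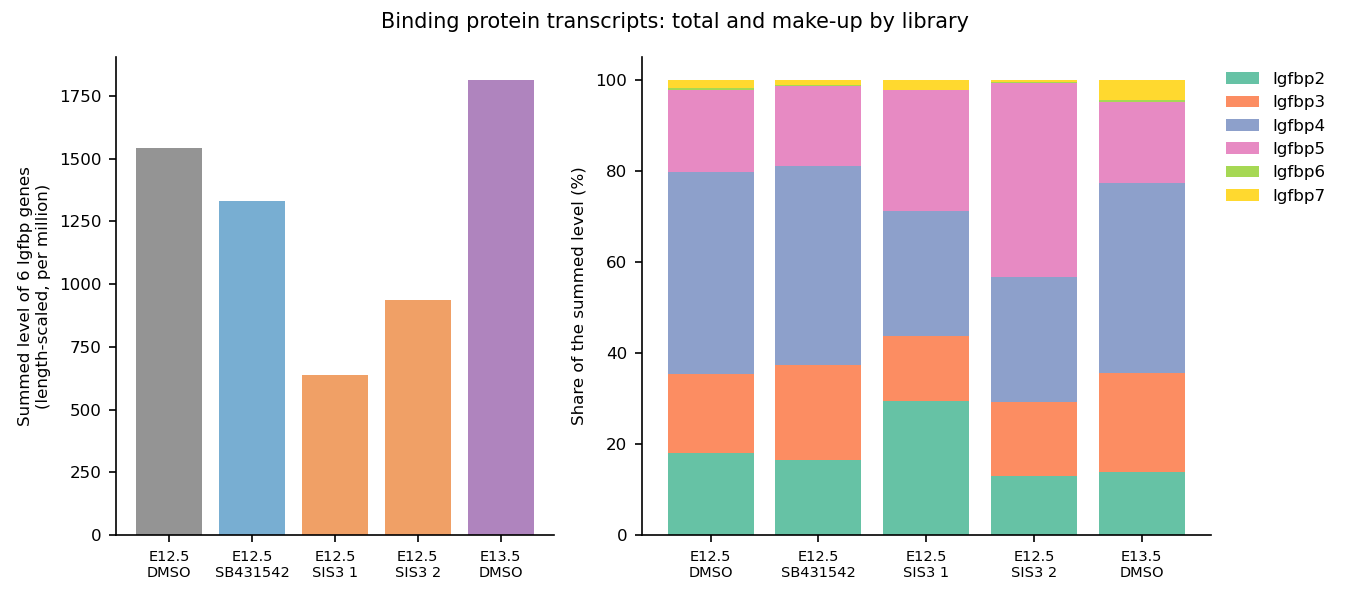
Left, the summed length-scaled level of the 6 Igfbp genes in each library, as bars from 0. Right, the share of each of the 6 Igfbp genes in their summed length-scaled level, in percent, as stacked bars for the 5 libraries; the Igfbp4 part is 44.4% in E12.5 DMSO, against 27.6% and 27.4% with SIS3, and the Igfbp7 part is 4.38% at E13.5.

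Set against the binding proteins, both ligands together had a length-scaled level of 1.07 times the 6 Igfbp genes in E12.5 DMSO, 1.04 times in SB431542, 1.33 and 1.28 times in SIS3 and 0.708 times in E13.5 DMSO. The E13.5 ratio was the lowest of the 5. These are levels of mRNA from single libraries, and no test of the ratio was made.

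The pattern of each member over the 4 libraries other than E12.5 DMSO was compared by the Euclidean distance between log2 differences. The nearest pairs of members were Igf1r with Igf2r (0.569), Igf1 with Igfbp4 (0.623) and Igf1 with Igfbp3 (0.800). Among 12344 genes with a mean of at least 5 CPM, those nearest to Igfbp4 were Il4ra (0.254), Prkar2a (0.254) and Tspan4 (0.275). For Igf1 they were Tesk2 (0.197), Rps6ka4 (0.217) and Dscc1 (0.308), and for Igf2 Gatad2a (0.0368), Nrep (0.0712) and Tmed2 (0.0904). With 4 libraries, such distances describe these libraries only.

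Other genes whose proteins bind IGFs or act on the binding proteins held 4 calls. Of these 10 genes 7 were tested, and in SIS3 1 rose and 2 fell, with a median of −1.27 (−0.01 in SB431542 and −0.31 at E13.5, where 0 and 1 were called). Over all genes 0.794% were called higher and 3.03% lower in SIS3, and 1.17% lower at E13.5. Adam12, a metalloprotease known to cleave IGFBP3 and IGFBP5, stood at 48.5 CPM in E12.5 DMSO, 41.9 in SB431542, 11.0 and 10.8 in SIS3 and 107 in E13.5 DMSO. Its SIS3 difference was −2.23 on the log2 scale (SE 0.33, adjusted p 0.00247 in edgeR). Htra1, a secreted serine protease, fell by 3.07 (SE 0.60, adjusted p 0.0142), from 17.4 CPM to 1.00 and 3.18, a call lost when the 2 groups were fitted alone. In SB431542 Htra1 stood at 6.46 CPM, a log2 difference of −1.48 with an adjusted p of 1.

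Stc2, stanniocalcin 2, a secreted inhibitor of the protease PAPP-A, which cleaves IGFBP4, was the gene of this group that rose. It stood at 1.97 CPM in E12.5 DMSO, 2.02 in SB431542, 15.2 and 23.0 in SIS3 and 0 in E13.5 DMSO. In SIS3 it was higher by 3.20 on the log2 scale (SE 0.70, adjusted p 0.0217 in edgeR). Against the limit of 3 counts in the E13.5 library, E13.5 was at least 11.5-fold lower than E12.5 (adjusted p 0.0109). Pappa, the gene of PAPP-A itself, was at 21.4, 33.0, 20.5, 9.44 and 13.3 CPM in the same order and was not called in any of the 3 comparisons. Both Stc2 calls and the Htra1 call ended when genes under a mean of 5 CPM were left out, and the E13.5 call of Stc2 also ended without the second E13.5 column.

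Signal transduction downstream of the receptors gave no call, in lists whose medians stand beside all-gene medians of 0.00 in each comparison. All 31 genes of this list, from Irs1 to Eif4ebp1, were tested, with medians of 0.05 (SB431542), 0.03 (SIS3) and −0.17 (E13.5). In each of the 3 comparisons 0 of the 31 were called, against 0%, 3.82% and 5.23% of all genes in that order. The smallest p values belonged to Eif4ebp1, a translation repressor under mTOR, in SB431542 (log2 difference 0.33), Tsc1, an mTOR inhibitor, in SIS3 (1.18, adjusted p 0.145 in edgeR) and Pik3ca, a catalytic subunit of PI3K, in E13.5 (0.80, adjusted p 0.170). None of the 3 tested genes of the other insulin family and its receptors was called. Insr, the insulin receptor, had the smallest p among them for SB431542 (log2 difference 0.26) and SIS3 (log2 difference 0.56). Insrr, a related receptor, had it for E13.5 (log2 difference −3.53). The ligand genes Ins1 and Ins2 were at 0 in all 5 libraries.

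The 3 Igf2bp genes, whose proteins bind Igf2 mRNA, gave 0 calls, with medians of 0.00, −0.23 and −0.56. Over all genes 0%, 3.82% and 5.23% were called in the same order. Igf2bp1 had the smallest p at E13.5, a log2 difference of −0.94 (adjusted p 0.138 in edgeR), and in SB431542 (−0.16), and Igf2bp3 in SIS3 (−0.54).

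Targets of the FOXO factors, which AKT keeps out of the nucleus, were 16 genes, all tested. In SB431542 0 were called, in SIS3 2 fell, and at E13.5 1 fell, with medians of 0.13, 0.02 and −0.14. Over all genes 3.03% were called lower in SIS3 and 1.17% at E13.5. Txnip, which codes for an inhibitor of thioredoxin, stood at 44.1 CPM in E12.5 DMSO, 22.7 in SB431542, 14.2 and 8.59 in SIS3 and 68.0 in E13.5 DMSO. It fell by 2.03 on the log2 scale in SIS3 (SE 0.39, adjusted p 0.0116 in edgeR), a call lost when the 2 groups were fitted alone. Fbxo32, a muscle ubiquitin ligase, fell by 1.55 (adjusted p 0.0489), a call that ended in DESeq2, with the 2 groups alone, with GC and length trends removed and without the second E12.5 DMSO column. Gadd45a, a stress gene, stood at 9.10 CPM at E12.5 and 1.48 at E13.5, and fell by 2.58 (adjusted p 0.0392), a call that ended in DESeq2 and without the second E12.5 DMSO column or either E13.5 column. All 3 calls ended when genes under a mean of 5 CPM were left out.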

How the data were processed

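RNA-seq values were the estimated counts per gene that the authors deposited, whole numbers with no scaling. Salmon, DESeq2, HISAT2, SAMtools and deepTools are named in the submitters' processing notes, which state no role or version for them, as is the build mm10; annotation and counting options were not found there. Salmon assigns reads shared between transcripts by estimation. Paired columns of the 3 SMARTer groups were summed, leaving 5 libraries. Genes passing edgeR's filterByExpr (19022) were fitted in 1 model with TMM factors and the robust quasi-likelihood test (edgeR 4.0.16, R 4.3.3), with 1 residual degree of freedom, 12.5 prior degrees and a common biological variation of 29.3%, and p-values adjusted by Benjamini-Hochberg at 0.05. DESeq2 1.42.0 and mgcv 1.9.3 (GC and length trends) served as alternatives. Lengths came from GENCODE gene models (35437 of 35896 genes, 98.7%) and promoters from RefSeq. The fit was also run on counts simulated with its own estimate of the spread. Such counts cannot show whether the lone libraries vary as the SIS3 pair does.

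All 10 members are named. Of each pathway list, genes called in any comparison are named, and otherwise the gene with the smallest p. For Igf1, Igf2 and called members the 3 nearest genes in pattern are named. Of cell type lists the 3 most abundant markers may be named; Dlx2 and markers at 0 were named after their values were seen. Members and lists were chosen with earlier results of these data known. A planned comparison of protein sequences was not made. Pericyte markers (675 CPM in E12.5 DMSO, 396 and 420 in SIS3), erythroid markers (563, 1256 and 565) and neural markers (26.2, 30.2 and 29.2) were the other lists measured.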

Additional observations from a re-analysis of the deposited data

How the results depend on the processing

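Of 317 alternative values of single members, 304 kept their sign, and 4 moved by over 1.5-fold, all without a SIS3 library (Igfbp5, Igfbp6 and Igfbp7). In SB431542, members stayed at 0 calls in every alternative tested. Igfbp4 stayed the 1 member lower in SIS3 with the 2 groups alone, with trends removed and without either E12.5 DMSO column. Members lower in SIS3 numbered 2 with DESeq2 size factors, 6 without a filter, 0 at a mean of at least 5 CPM and 3 in DESeq2. Over all genes 581, 1079, 106 and 445 were called lower in the same order, against 576 in the main fit. The number of genes tested differs with the filter, and shares were not computed for these settings. Leaving out a SIS3 library left no residual degrees of freedom, so Igfbp4 has only values there (−1.57 and −2.12).

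Taking the 8 columns as separate samples gave 1 member higher and 7 lower in SIS3 and 2 higher at E13.5 (Igfbp3 and Igfbp7), and, over all genes, 95 higher and 164 lower in SB431542, 3157 and 3607 in SIS3 and 5257 and 4485 at E13.5. With a replicate block the members numbered 1, 7 and 2 again, and all genes 19 and 64, 2848 and 3346, and 5006 and 4254. The differences between columns 1 and 2 of a group correlated at −0.0765 to 0.0414 with those of other groups. Where such differences are close to sampling noise, this cannot show whether the numbers pair the samples. Both fits treat columns close to sampling noise as replicates.

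Over all genes, 0 were called in SB431542, 151 higher and 576 lower in SIS3, and 772 and 223 at E13.5. Without a filter these were 8 and 19, 335 and 1079, and 1458 and 604. At a mean of at least 5 CPM, SIS3 gave 24 and 106 and E13.5 158 and 34. DESeq2 gave 0 higher and 4 lower in SB431542, 230 higher and 445 lower in SIS3, and 439 and 135 at E13.5. The 2 groups alone gave 63 and 169 in SIS3, and removed trends 136 and 266. Leaving out 1 column gave 0 to 1 lower in SB431542, 141 to 150 higher and 500 to 558 lower in SIS3, and 327 to 649 higher and 72 to 198 lower at E13.5. The E13.5 count fell by over 1.5 times without E12.5 DMSO column 2 (502 higher, 160 lower), E13.5 column 1 (334 and 85) or E13.5 column 2 (327 and 72). The cause of these moves was not tested. The Igf2 share was 42.8% with union exons and 42.7% to 43.8% with single columns, and the Igfbp4 share of the Igfbp sum was 45.4%.

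Depth limited Igfbp6 most, since 3 counts equal 0.318 to 0.500 CPM in the SIS3 libraries and 0.0969 to 0.171 elsewhere.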

Other observations

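Genes that share imprinting or a chromosomal position with the members were measured too. Of 15 imprinted growth genes 11 were in the table and 10 were tested. In SIS3 2 of them fell, with a median log2 difference of −0.55, and 0 were called in SB431542 or at E13.5 (medians −0.15 and −0.50). Over all genes 3.03% were called lower in SIS3, and 5.23% in either direction at E13.5. Dlk1, a paternally expressed membrane protein of the Notch ligand family, stood at 353 CPM in E12.5 DMSO, 319.7 in SB431542, 105 and 135 in the SIS3 libraries and 219.9 in E13.5 DMSO. Its SIS3 difference was −1.63 (SE 0.28, adjusted p 0.00561 in edgeR). Mest, also paternally expressed, stood at 1063, 874, 568, 477 and 685 CPM in the same order, with a SIS3 difference of −1.09 (SE 0.27, adjusted p 0.0396). The Mest call ended with GC and length trends removed, and when the 2 groups were fitted alone. Both calls ended when genes under a mean of 5 CPM were left out. Peg10 had the smallest p in SB431542 (log2 difference 0.44) and at E13.5 (log2 difference −1.04, adjusted p 0.0914 in edgeR).

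Of 18 chromosomal neighbours of the members 11 were tested, with 0 called in SB431542 and SIS3 and 1 higher at E13.5. Over all genes 3.82% were called in SIS3, and 4.06% were called higher at E13.5. Spryd3, beside Igfbp6, stood at 12.1 CPM in E12.5 DMSO and 53.5 in E13.5 DMSO, a log2 difference of 2.17 (SE 0.54, adjusted p 0.0355 in edgeR), a call that ended without either E13.5 column and with genes under a mean of 5 CPM left out. Soat2, 1014 bases from Igfbp6 on its other side, had the smallest p in SIS3 (log2 difference 1.59, adjusted p 0.226 in edgeR). Mas1, near Igf2r, had it in SB431542, with 14 counts against 3 in E12.5 DMSO. Igfbp1, 3539 bases from Igfbp3, had 0 to 3 counts in any library.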
